A study of Mus musculus with 80 samples.

Results

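The comparison was between 2 RNA-seq libraries of mouse embryonic stem (ES) cells, 1 from a line labelled as a double knockout (DKO) of Sall1 and Sall4 and 1 from the wild-type cells that the labels assign to it. They were taken by their sample labels from 80 samples, 12 of which are RNA libraries, and their tables list the same 23235 gene symbols. The genotype label of the first is Sall1-/-/Sall4-/-, and both libraries carry the strain label C57BL/6J. Per the labels' growth protocol, ES cells of the series were kept on gelatin without feeder cells, in medium with serum replacement, fetal bovine serum and LIF, the cytokine that holds mouse ES cells undifferentiated. The sources used here do not give how many clones or cultures stand behind each library, nor which exons were removed. Libraries labelled Sall1 het (Sall1flox/-) and Sall1 KO (Sall1Δ/-), of the same strain label and annotation, were set beside them. Both pairs labelled Sall4 het (Sall4flox/-) and Sall4 KO (Sall4Δ/-) were used as well, replicate 1 from TT2 F1 cells in FPKM and replicate 2 from 129P2/OlaHsd E14.1 cells in RPKM, each with its own annotation. Each side of the main comparison had 1 library, so no test, error or interval is given, and nothing below separates an effect of the genotype from a difference between these cultures or clones.

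SALL1 and SALL4 belong to the spalt-like family of DNA-binding zinc finger proteins, both present in ES cells and both able to bind the NuRD complex, which removes histone acetyl groups and remodels nucleosomes. SALL4 is needed by the early embryo and is known as a partner of OCT4 and NANOG, the factors that hold ES cells in the pluripotent state. The study as titled joins SALL4A, the long isoform, to the TET enzymes, which oxidise 5-methylcytosine in DNA. Pluripotent mouse cells lie between a naive state, like the inner cell mass, and a primed state, like the later epiblast, and each state has its own set of genes.

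Both targeted genes were read first. Sall1 (mm9, chromosome 8, 91551143 to 91568061) stood at 2.27 FPKM in the library labelled DKO, 13.9 in its wild type, 21.8 in Sall1 het and 13.3 in the library labelled Sall1 KO. The value of the library labelled DKO was below the other 3, with a log2 ratio of -2.17 to its wild type. Sall4 (mm9, chromosome 2, 168573832 to 168592701) stood at 109 in the library labelled DKO, 17.6 in its wild type, 18.6 in Sall1 het and 17.8 in Sall1 KO. Its RNA was thus 6.01-fold higher, not lower, in the library labelled DKO. The same direction was seen in the libraries labelled Sall4 KO, at 358 against 196 in het for replicate 1 and 218 against 64.2 for replicate 2. Gene-level values also count exons that a deletion leaves in place, so these Sall4 values check no label, and the library is called by its label throughout. The other family members were low. Sall2 was at 1.10 against 1.6, and Sall3 at 3.90 against 1.84.

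The TET genes differed by less than 2-fold. Tet1, the main TET enzyme of ES cells, was at 9.56 in the library labelled DKO against 10.8 in its wild type, a log2 ratio of -0.13. Tet2 was at 3.40 and 6.43, a log2 ratio of -0.74, and Tet3 lay under 1 FPKM in both. Of the genes of TET oxidation and base excision repair, 14 were at 5 FPKM or more in at least 1 of the libraries. Of these 14, 13 differed by less than 2-fold and 1 (7.14%) was at 2-fold, near the 8.49% over all genes. The exception was Gadd45g, a stress gene linked to DNA repair, at 20.2 in the library labelled DKO against 6.83 in its wild type, while Sall1 het was at 21.6 and Sall1 KO at 19.3. Tdg, the glycosylase that excises oxidised methylcytosine, was at 9.70 and 8.57.

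Ratios were taken on the log2(FPKM + 1) scale after scaling, over 8621 genes at 5 FPKM or more in at least 1 of both libraries, and a gene at 2-fold or more is called higher or lower here. By this rule 416 genes were higher in the library labelled DKO (4.83%) and 316 were lower (3.67%), 8.49% in all. Small RNAs, predicted genes and clone names held a large part of these. Of 885 such entries 21.2% were at 2-fold, against 7.03% of the 7736 other genes, where 332 were higher and 212 lower. They also made up all 33 entries higher against a wild type listed at 0, and all 43 lower entries listed at 0 in the library labelled DKO. The plot of both libraries against each other shows these entries along its edges and the named genes away from the diagonal.

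**Figure D1:**
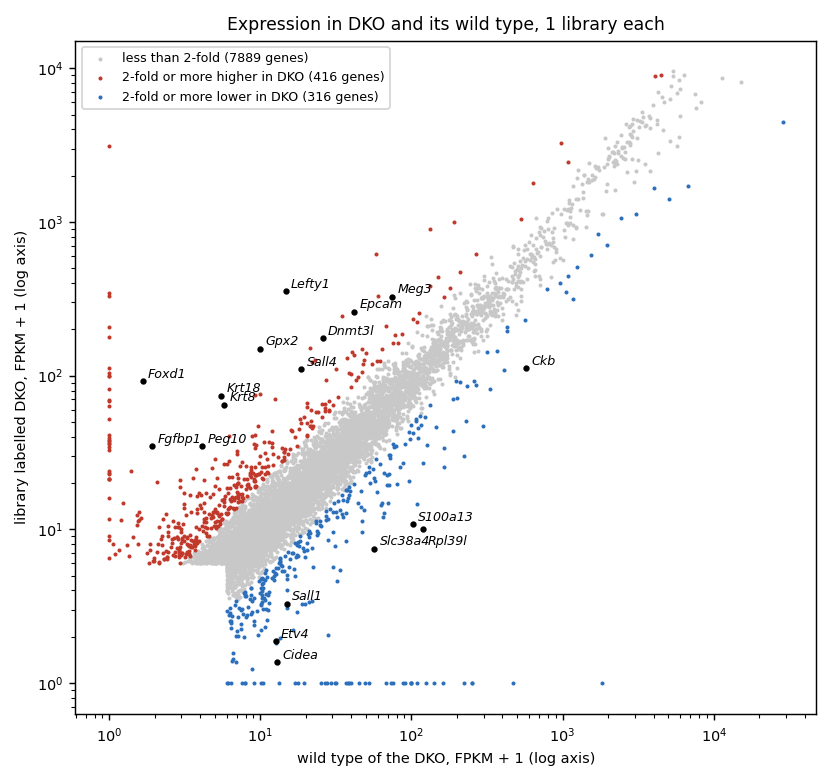
Expression of 8621 genes in the wild type of the DKO (x axis) and in the DKO-labelled library (y axis), as deposited FPKM + 1 on log axes, 1 library each. Red points mark 416 genes higher by 2-fold or more, blue points 316 lower, and points at 1 on an axis are listed at 0 there. Foxd1, Lefty1 and Gpx2 stand far above the diagonal and Slc38a4, Rpl39l and S100a13 far below it.

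The wild type of the DKO was not close to Sall1 het, the 1 control library compared with it here. Against Sall1 het it had 1017 of 8617 genes at 2-fold (11.8%), with 6.12% higher and 5.69% lower, which is a larger share than the library labelled DKO had against its own wild type. The library labelled DKO against Sall1 het had 13.3%, with 7.64% higher and 5.64% lower, and these shares are the background for each count given below against Sall1 het. Sall1 KO against Sall1 het had 110 of 8173 (1.35%), with 0.624% higher and 0.722% lower. So each ratio was also read by which of both libraries stood outside the other 3 of the same annotation. Of the 416 higher genes, the library labelled DKO was 2-fold above each of the other 3 for 189, the wild type was 2-fold below each of the other 3 for 118, both held for 14, and neither for 123. Of the 316 lower genes, the library labelled DKO was 2-fold below the other 3 for 82, and its wild type 2-fold above them for 153, with both for 3 and neither for 84. Over all 9040 genes of the 4 libraries, 2.09% had the library labelled DKO above the other 3 and 0.973% below, and 1.69% and 1.46% had the wild type above and below. For the main genes, the values of all 4 libraries are therefore given. The DKO and its wild type share the Sall1 libraries as a common reference here, so these readings are not independent of each other. With 1.35% of genes at 2-fold between them, the Sall1 libraries were close to each other and serve as little more than 1 reference. Counts and medians of a list cover only its members at 5 FPKM or more, and a member that passed through the one library where it was high had to differ.

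ES cell markers were high in both libraries. Pou5f1, which encodes OCT4, was at 755 in the library labelled DKO against 766 in its wild type, Sox2 at 193 and 170, and Zfp42, also known as Rex1, at 285 and 300. Markers of 8 fibroblast genes summed to 311 and 317 FPKM in these libraries, against 98.1 in Sall1 het and 91.7 in Sall1 KO. Col1a1, a collagen chain, was at 103 and 97.9, against 21.6 and 20.1. Such transcripts were thus shared by both libraries compared, and of 27 fibroblast and contractile genes the median log2 ratio was -0.18 with 3 higher (Anxa3, Twist1 and Tpm1) and 0 lower. Primitive endoderm markers summed to 6.78 and 3.00 FPKM, trophoblast markers to 8.29 and 5.72 with Tpbpa at 0 in all 4 libraries, and blood and endothelial markers to 0.938 and 1.01. Neural markers summed to 24.1 and 37.1, and single markers went in opposite directions. Tubb3, a neuronal tubulin gene, was at 11.7 in the library labelled DKO against 35.7 in its wild type, with 36.7 in Sall1 het and 36.1 in Sall1 KO. Sox1, a neural factor, was at 10.6, 1.29, 1.20 and 1.12, and En2, a homeobox gene of the midbrain and hindbrain, at 6.53, 1.79, 1.07 and 0.949. Tubb3 was thus lowest, and Sox1 and En2 highest, in the library labelled DKO. Of 5 neuroectoderm genes at 5 FPKM or more, 2 were higher and 1 was lower. In bulk RNA, fewer cells of a type and less RNA per cell cannot be told apart.

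Naive pluripotency genes were mostly somewhat lower in the library labelled DKO. Of 20 at 5 FPKM or more, 5 were lower by 2-fold, 0 were higher and 14 lay below 0, with a median log2 ratio of -0.40 against -0.01 over all genes. Nanog, a core pluripotency factor, was at 193 in the library labelled DKO, 425 in its wild type, 277 in Sall1 het and 278 in Sall1 KO. Here the library labelled DKO was lower than the other 3, and its wild type higher than the other 3, each by less than 2-fold from the next. Tfcp2l1, a naive factor downstream of LIF, was at 17, 35.9, 5.79 and 5.21 in the same order, Tbx3, another, at 11.0, 31.2, 3.57 and 3.72, and Prdm14, which represses FGF signalling genes and DNA methyltransferases, at 6.16, 14.2, 3.96 and 3.28. For these 3 genes the library labelled DKO lay between its wild type and both Sall1 libraries. Pecam1, an adhesion molecule of naive ES cells, was at 6.82, 30.3, 10.8 and 8.99. Klf2 and Klf4, naive factors, were at 243 and 139 in the library labelled DKO against 228 and 126 in its wild type. Against Sall1 het, 4 of 21 naive genes were higher, 1 was lower and the median was 0.44, so the list's direction rests on which control is used. Of 17 core pluripotency genes only Utf1 was at 2-fold, at 104 against 37.7, with 349 in Sall1 het. Against Sall1 het, 0 of 19 core genes were higher, 6 were lower and the median was -0.85, from 0.00 against the wild type.

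Primed epiblast genes were higher than in the wild type but not than in Sall1 het. Of 12 at 5 FPKM or more, 7 were higher and 1 was lower, with a median log2 ratio of 1.32, or 0.48 with members from 1 FPKM. Against Sall1 het, 1 of 16 was higher, 7 were lower and the median was -0.66. Zic2, a zinc finger factor of the epiblast and neural plate, was at 73.3 in the library labelled DKO, 8.23 in its wild type, 20.7 in Sall1 het and 20.1 in Sall1 KO. It was the member that the library labelled DKO had above the other 3. Lef1, which carries WNT signals to DNA, was at 10.3, 0.554, 6.44 and 7.20, and here the wild type alone was low. Dnmt3b, a de novo DNA methyltransferase, was at 36.1, 9.59, 102 and 114. Sox3, Sox4, Zic5 and Cldn6 had log2 ratios of 1.57, 1.36, 1.29 and 1.55 to the wild type, which was below the Sall1 libraries as well for all 4. Etv4, an ETS factor induced by FGF and ERK signalling, went the other way, at 0.867 against 11.6, with 16.6 in Sall1 het and 19.8 in Sall1 KO. In this list it was the member for which the library labelled DKO stood below the other 3.

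DNMT3L, which assists the de novo DNA methyltransferases, gave one of the higher ratios. Dnmt3l was at 174 in the library labelled DKO, 24.9 in its wild type, 153 in Sall1 het and 182 in Sall1 KO, so the wild type alone was low. Of 11 DNA methyltransferases and readers, Dnmt3l and Dnmt3b were the ones at 2-fold. Dnmt1, which copies methylation after replication, was at 34.3 and 42.8, its partner Uhrf1 at 72.1 and 100, and Dnmt3a at 5.85 and 5.88, against 18.8 in Sall1 het.

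In the NODAL pathway the inhibitors stood apart and the ligand did not. NODAL and its coreceptor CRIPTO signal through activin receptors to SMAD2 and SMAD3, and LEFTY1 and LEFTY2 are secreted inhibitors that the pathway itself switches on. Lefty1 (mm9, chromosome 1, 182865170 to 182868532) was at 353 in the library labelled DKO, 13.7 in its wild type, 303 in Sall1 het and 283 in Sall1 KO. Lefty2 was at 125, 22.1, 104 and 89.2. For both the wild type was low and the library labelled DKO was close to the Sall1 libraries. Foxh1, the DNA-binding partner of SMAD2, was at 26.6 against 13 and lay just inside the 2-fold limit. Nodal was at 32.6 and 30.1, and Tdgf1, which encodes CRIPTO, at 490 and 498. Pcsk6, a protease that matures NODAL, was lower, at 5.99 against 15.5. Of 15 pathway genes 4 were higher and 1 was lower, with a median log2 ratio of 0.16, and the same median was obtained against Sall1 het with 0 higher and 1 lower.

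Among WNT genes, Notum, a secreted enzyme that inactivates WNT ligands and is a target of the pathway, was at 39.3 in the library labelled DKO against 7.78 in its wild type, with 8.15 and 7.70 in the Sall1 libraries. The library labelled DKO alone was high for it. Porcn, the acyltransferase that WNT ligands need for secretion, was at 12.9 against 5.26, and at 11.1 in Sall1 het. Ccnd1, which encodes cyclin D1, was lower, at 5.17 against 12.6, and at 25.7 in Sall1 het and 28.2 in Sall1 KO. Cdx1, a caudal homeobox gene, was at 2.89 against 6.90 and lay just inside the 2-fold limit. Of 13 genes of the list 3 were higher, 2 lower, and the median log2 ratio was -0.12. Of 8 ID and BMP pathway genes, Id1 (24.9 against 6.34) and Id2 (32.2 against 13.7) were higher. They encode inhibitors of basic helix-loop-helix factors that BMP signalling switches on, and the library labelled DKO was the highest of the 4 for both.

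Several epithelial genes, the simple keratins Krt8, Krt18 and Krt19 among them, were higher in the library labelled DKO. Of 6 keratins at 5 FPKM or more, 3 were higher, Krt42 was lower, and Krt17 and Krt7 had log2 ratios of -0.20 and 0.43. Of 18 epithelial and adhesion genes 8 were higher, 0 were lower, and the median log2 ratio was 0.68, with 7 higher, 1 lower and a median of 0.47 against Sall1 het. Krt8 and Krt18 encode the keratin pair of simple epithelia, and the genes are neighbours on chromosome 15. Krt18 (mm9, 101858647 to 101862457) was at 73.2 in the library labelled DKO, 4.49 in its wild type, 14.7 in Sall1 het and 17.2 in Sall1 KO. Krt8 (mm9, 101827142 to 101834773) was at 63.9, 4.79, 12.4 and 14.7. Both genes had the same order of libraries, with the library labelled DKO 2-fold above the other 3 and the wild type 2-fold below. Epcam, an epithelial adhesion molecule also present on ES cells, followed at 259, 40.9, 118 and 123. The promoters of these 3 genes were picked as examples, not by a rule. Cldn7 and Spint2, given below, had the same order of the 4 libraries. They also have a promoter in the RefSeq table but are not shown. Each runs 5' to 3' from 250 bases before to 50 after the start of the gene, in RefSeq for GRCm38.p6, with capitals for CACCTG or its reverse complement CAGGTG, the E-box that the epithelial repressors SNAI1 and ZEB1 are known to bind. The regions are chr15:102004293-102004592 on the minus strand for Krt8, chr15:102027966-102028265 on the plus strand for Krt18 and chr17:87635729-87636028 on the plus strand for Epcam.
Krt8: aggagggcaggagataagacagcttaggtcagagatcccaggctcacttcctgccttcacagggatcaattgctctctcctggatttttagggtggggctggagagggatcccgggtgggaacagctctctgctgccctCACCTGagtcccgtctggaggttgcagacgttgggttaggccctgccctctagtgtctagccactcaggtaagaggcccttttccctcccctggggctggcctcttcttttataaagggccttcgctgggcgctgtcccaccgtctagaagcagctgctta
Krt18: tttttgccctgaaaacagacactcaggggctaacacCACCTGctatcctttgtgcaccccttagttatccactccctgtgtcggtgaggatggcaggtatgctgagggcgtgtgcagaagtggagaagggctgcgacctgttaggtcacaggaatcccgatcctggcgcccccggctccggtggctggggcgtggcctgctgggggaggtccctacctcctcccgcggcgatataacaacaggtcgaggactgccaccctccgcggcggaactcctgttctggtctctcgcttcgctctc
Epcam: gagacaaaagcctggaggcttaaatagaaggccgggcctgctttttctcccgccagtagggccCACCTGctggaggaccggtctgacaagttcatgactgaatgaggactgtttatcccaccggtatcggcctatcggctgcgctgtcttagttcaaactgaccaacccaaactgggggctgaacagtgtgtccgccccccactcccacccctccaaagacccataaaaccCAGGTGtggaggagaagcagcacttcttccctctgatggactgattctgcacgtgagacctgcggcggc
The Krt8 and Krt18 windows each hold 1 match and the Epcam window 2. Of 27025 genes with a promoter in the RefSeq table, 22.6% have a match in at least 1 window, so its presence here is a description only. A count over the epithelial list would be void, since 12 of its 18 genes (66.7%) match a promoter in the table by symbol.

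Further epithelial genes differed in which library stood apart. Esrp1, an epithelial splicing regulator, was at 11.4 in the library labelled DKO, 0.531 in its wild type, 21.7 in Sall1 het and 24.3 in Sall1 KO. Cldn7, a tight junction claudin, was at 34.9, 8.13, 24.6 and 31.8, and Spint2, a protease inhibitor of epithelia, at 182, 77.2, 132 and 137. For these 3 genes the wild type was the low library. Cdh1, which encodes E-cadherin, was at 50.6, 63.0, 63.9 and 62.2, a log2 ratio of -0.29. Trophoblast and simple keratin genes overlap this list in Krt8, Krt18 and Krt19. Of 11 in the list 7 were higher and 2 lower, with a median of 1.20, and 8 were higher and 1 lower against Sall1 het with a median of 1.49. Plac1, a placental gene, was at 5.86 against 0.0940, and the X-linked homeobox genes Rhox6 and Rhox9 at 15.6 and 16.2 against 2.42 and 2.11. The library labelled DKO was the highest of the 4 for all 3 of these genes. The trophoblast factor Tead4 was lower, at 2.76 against 9.32, and the markers Cdx2, Elf5 and Gata3 were under 1 FPKM in both libraries.

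**Figure D2:**
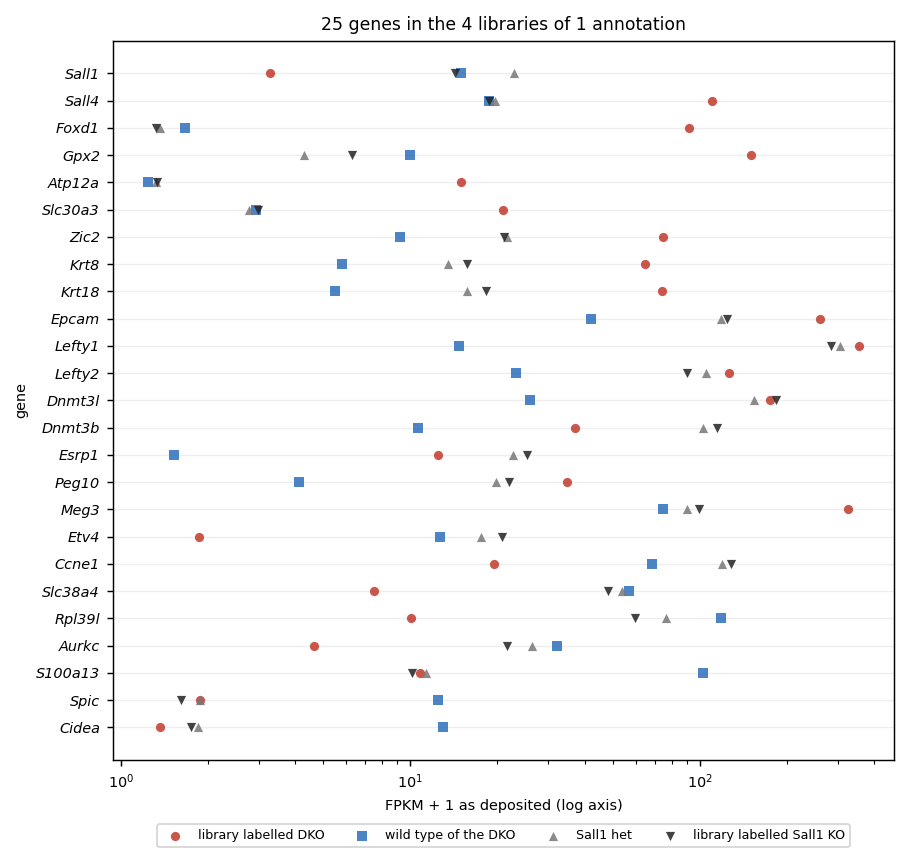
Deposited FPKM + 1 (x axis, log) of 25 genes (y axis) in the library labelled DKO, its wild type, Sall1 het and the library labelled Sall1 KO, 1 library each. For Foxd1, Gpx2, Atp12a and Slc30a3 the red circle alone lies to the right, for Lefty1, Dnmt3l and Esrp1 the blue square alone lies to the left, and for S100a13, Spic and Cidea the blue square alone lies to the right.

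Imprinted genes, which are read from 1 parental allele under the control of DNA methylation, were higher more often than lower. Of 22 at 5 FPKM or more, 9 were higher, 2 were lower and the median log2 ratio was 0.67, and against Sall1 het 9 were higher, 2 lower and the median was 0.78. Meg3 and Rian, noncoding RNAs read from the maternal allele of one cluster, were both measured in all 4 libraries. Meg3 was at 325 in the library labelled DKO, 73.6 in its wild type, 89.3 in Sall1 het and 98.6 in Sall1 KO, and Rian at 210, 67.1, 101 and 104. For both the library labelled DKO was the highest. Mirg, the next transcript of that cluster on chromosome 12, was higher too, at 31.2 against 6.05. Peg10 (mm9, chromosome 6, 4697306 to 4710516), a retrotransposon-derived gene of the placenta, was at 33.7, 3.11, 18.8 and 20.9. Its neighbour Sgce was at 11.8, 2.80, 2.69 and 2.86, so the wild type was low for one and the library labelled DKO high for the other. Nnat, a neuronal proteolipid gene, was at 23.8, 2.74, 20.9 and 29.7, and Mest, a hydrolase gene, at 46.2, 8.67, 26.9 and 33.4. Igf2, a fetal growth factor, was at 57.2, 23, 12.4 and 12.3, and Cdkn1c, which encodes the cell cycle inhibitor p57, at 13.8, 3.26, 27.6 and 25.9. H19, linked to Igf2, was at 109 and 69.8. The lower genes were Slc38a4, an amino acid transporter gene, at 6.46, 55.9, 52.7 and 47.2, and Phlda2, a placental growth regulator, at 4.65, 29.1, 112 and 133. For both lower genes the library labelled DKO stood below all of the other 3. Allele of origin was not measured in these tables.

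Genes of the 2-cell stage and of the germline were lower than in the wild type. Of 9 genes of the 2-cell-like state, which a small share of ES cells enters at any time, 7 were lower and 0 higher with a median of -1.03, but the median against Sall1 het was 0.34, with 1 higher. Zscan4f was at 63.2 in the library labelled DKO, 132 in its wild type, 42.0 in Sall1 het and 25.8 in Sall1 KO, and Zscan4c at 51.3, 106, 31.4 and 19.6. All 6 Zscan4 copies at 5 FPKM or more were lower, and their near-identical sequences mean that reads could be split among them, so their values are not independent. Of 10 germline and meiosis genes 5 were lower and 0 were higher, with a median of -1.0, and 4 lower, 1 higher and -0.93 against Sall1 het. Dazl, an RNA-binding gene of germ cells, was at 1.83, 7.62, 2.22 and 2.04, so the wild type alone was high. Stra8, a retinoic acid target at meiotic entry, was at 1.38, 8.08, 8.10 and 9.83, and Hormad1, of the meiotic chromosome axis, at 2.01, 9.45, 6.95 and 6.58. For these last 2 the library labelled DKO alone was low. Tuba3a, a testis tubulin gene, was at 7.38 against 36.1, and Rpl10l, a retrocopy of a ribosomal protein gene expressed in testis, at 32.8 against 163. Reads of Rpl10l and of Rpl39l can be shared with their parent genes, so both are uncertain.

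Genes of cholesterol and fatty acid synthesis were lower almost throughout, by a modest amount. SREBP2 switches on the genes of the mevalonate and sterol pathway when membrane sterol is low. Of 29 genes at 5 FPKM or more, 28 lay below 0, 8 were at 2-fold lower, 0 were higher and the median log2 ratio was -0.76. Idi1, which isomerises isopentenyl diphosphate, was at 19.8 in the library labelled DKO, 56.6 in its wild type, 51.3 in Sall1 het and 46.6 in Sall1 KO. Fdps, which makes farnesyl diphosphate, was at 90.9, 197, 188 and 197. For both, the library labelled DKO was low and the other 3 lay together. Insig1, a sterol sensor partner and SREBP target, was at 33.3, 76.1, 49.0 and 50.2, and Cyp51, a sterol demethylase, at 11.1, 26.4, 16.4 and 16.6. In both the wild type was high and the library labelled DKO low, with the Sall1 libraries between. Srebf2 itself was at 36.6, 55.8, 38.2 and 40.6. Against Sall1 het 3 of 28 genes were lower, 0 higher and the median was -0.45.

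The promoters of Idi1, Insig1 and Cyp51 are printed as examples of the lower sterol genes present in the RefSeq table. Capitals mark CCAAT or its reverse complement ATTGG, the box bound by NF-Y, which is known to act beside SREBP at sterol genes. In GRCm38.p6 the windows are chr13:8885356-8885655 on the plus strand for Idi1, chr5:28071162-28071461 on the plus strand for Insig1 and chr5:4104648-4104947 on the minus strand for Cyp51.
Idi1: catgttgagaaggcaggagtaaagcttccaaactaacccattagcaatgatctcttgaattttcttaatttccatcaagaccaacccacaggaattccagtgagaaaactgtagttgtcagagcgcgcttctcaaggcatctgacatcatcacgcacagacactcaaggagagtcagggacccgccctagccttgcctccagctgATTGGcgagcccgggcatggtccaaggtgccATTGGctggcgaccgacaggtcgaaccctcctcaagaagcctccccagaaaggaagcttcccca
Insig1: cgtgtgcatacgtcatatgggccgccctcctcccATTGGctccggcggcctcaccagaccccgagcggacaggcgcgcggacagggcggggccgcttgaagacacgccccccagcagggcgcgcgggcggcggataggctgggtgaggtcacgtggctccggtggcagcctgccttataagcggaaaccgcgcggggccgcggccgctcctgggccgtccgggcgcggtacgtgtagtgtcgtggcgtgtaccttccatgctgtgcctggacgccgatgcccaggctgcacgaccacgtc
Cyp51: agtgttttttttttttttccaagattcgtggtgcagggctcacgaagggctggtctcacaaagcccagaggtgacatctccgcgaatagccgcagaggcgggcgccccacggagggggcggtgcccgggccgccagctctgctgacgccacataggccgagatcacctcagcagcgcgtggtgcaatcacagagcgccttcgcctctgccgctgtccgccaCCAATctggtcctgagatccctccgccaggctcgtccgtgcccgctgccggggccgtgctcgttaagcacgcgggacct
Idi1 has 2 matches, and Insig1 and Cyp51 have 1 each, in windows whose motif is found for 41.1% of all 27025 genes. The sterol element written TCACNCCAC had 0 matches in the 3 windows on either strand and occurs for 1.44% of genes. A search for this fixed pattern misses other forms, so 0 matches do not show that a sterol element is absent. For the list as a whole the check is void, because 18 of 29 genes (62.1%) match a promoter in the table by symbol.

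Most of these genes also lay below 0 in both pairs labelled Sall4 KO and het, which share no library with the pair above. In replicate 1, where 4.07% of all genes were higher and 4.51% lower by 2-fold, 26 of 27 genes lay below 0, 4 were lower, 0 higher and the median was -0.70. In replicate 2, with 5.74% higher and 7.8% lower, 26 of 29 lay below 0, 5 were lower, 0 higher and the median was -0.54. In the pair labelled Sall1 KO and het, 7 of 28 lay below 0, none was at 2-fold and the median was 0.04. Fdps was at 34.4 in the library labelled Sall4 KO and 71.4 in het for replicate 1, and at 52.0 and 123 for replicate 2. The plot of the list in 4 pairs shows this gene by gene.

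**Figure D3:**
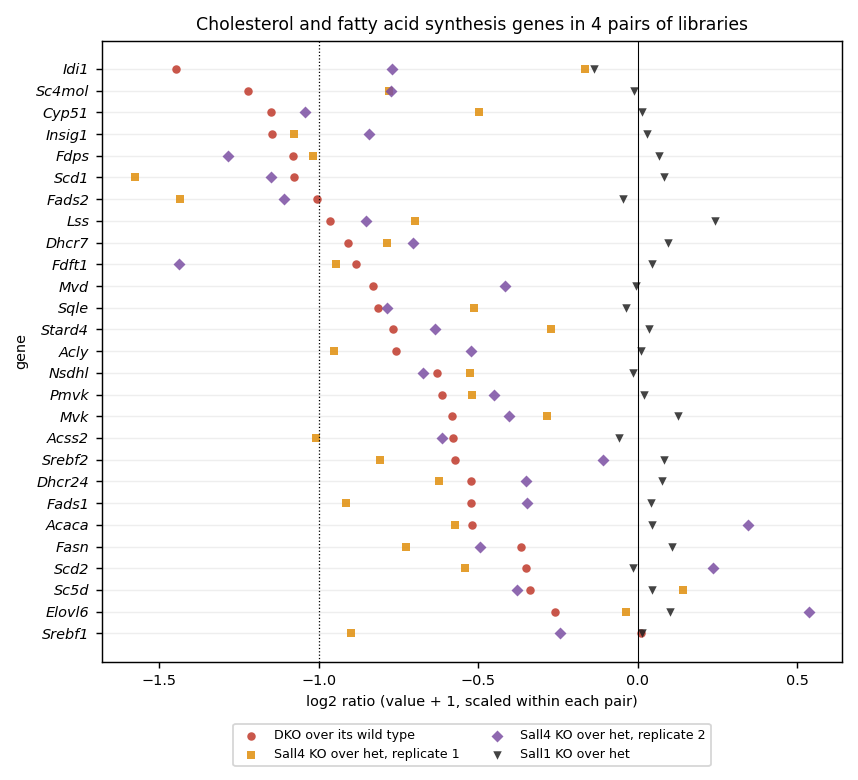
Log2 ratios (x axis, values + 1 scaled within each pair) of 27 of the 29 cholesterol and fatty acid synthesis genes (y axis) in 4 pairs of libraries that share no library. Points of the library labelled DKO and of both pairs labelled Sall4 KO lie mostly left of 0 (28 of 29, 26 of 27 and 26 of 29 genes over the whole list), and those of the pair labelled Sall1 KO lie around 0. A point is missing where a gene is not listed in that pair's tables.

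FGF and LIF response genes at 2-fold were all lower than in the wild type. Against Sall1 het, both lists held genes at 2-fold in each direction, with more lower than higher. FGF4 acts through ERK in ES cells and induces feedback genes, and LIF acts through STAT3. Of 13 FGF and ERK genes 3 were lower (Etv4, Egr1 and Ccnd1) and 0 higher, with a median of -0.31. Egr1, an immediate early gene, was at 85.8 in the library labelled DKO, 269 in its wild type, 85 in Sall1 het and 74.0 in Sall1 KO, so the wild type alone was high. Etv5, close to Etv4 in sequence, was at 66.0 against 50.6, and Spry2, a feedback inhibitor, at 48.7 against 42.1. Against Sall1 het, 8 of 17 genes of the list were lower, 1 was higher and the median was -0.71. Of 15 LIF, STAT3 and MYC genes 4 were lower and 0 higher, with a median of 0.02, while against Sall1 het 5 of 17 were lower, 3 higher and the median was -0.05. Sgk1, a kinase gene, was at 34.6, 127, 84.3 and 67.7, Pim1, a STAT3 target kinase, at 22.4, 65.0, 43.4 and 45.9, and Bcl3, a cofactor of NF-κB, at 14.6, 34.2, 18.3 and 17.5. All 3 had the library labelled DKO lowest and its wild type highest. Stat3 was at 15.1 and 20.2, and Socs3, its feedback inhibitor, at 48.5 and 27, a log2 ratio of 0.84.

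Of 38 cell cycle and replication genes, 3 were lower (7.89%) and 0 higher. Over all genes 3.67% were lower and 8.49% were at 2-fold in either direction, so the list's share at 2-fold was near that of all genes. The 3 lower genes encode G1 cyclins. Against Sall1 het, 2 of 39 were lower and 2 higher. Ccne1 was at 18.4 in the library labelled DKO, 67.6 in its wild type, 118 in Sall1 het and 127 in Sall1 KO, and the library labelled DKO alone was low. Ccnd3 was at 84.8, 232, 83.7 and 87.7, and there the wild type alone was high. Ccnd1 is given above. Cdkn2a, which encodes the inhibitors p16 and ARF, was at 45.6 and 23.4, a log2 ratio of 0.96, and Pcna, the replication clamp, at 404 and 522. Replication-dependent histones were higher, with 10 of 26 at 2-fold, 0 lower and a median of 0.88, but 1 higher, 2 lower and a median of 0.33 against Sall1 het. Hist1h3a was at 17.4 in the library labelled DKO, 4.99 in its wild type, 11.0 in Sall1 het and 13.7 in Sall1 KO, and Hist1h1b, a linker histone gene, at 9.91, 2.09, 8.19 and 11.9. Such transcripts mostly lack a poly(A) tail, and how RNA was selected in each library is not given. Many of these genes are also near-identical.

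Interferon and antigen presentation genes included 5 of 16 higher, 0 lower and a median of 0.64. Bst2, a membrane protein that tethers virus particles, was at 122 in the library labelled DKO, 21.1 in its wild type, 90.4 in Sall1 het and 99.7 in Sall1 KO. Isg15, a ubiquitin-like modifier, was at 5.67, 0.357, 4.37 and 3.61, Ddx58, which encodes the RNA sensor RIG-I, at 6.31, 0.868, 3.65 and 3.49, and Irf1, an interferon regulatory factor, at 28.8, 8.91, 28.5 and 30.8. The wild type was the low library for these 4 genes. B2m, the light chain of MHC class I, was at 126, 47.4, 36.3 and 35.0, with the library labelled DKO the high one. Against Sall1 het the list had 1 higher, 4 lower and a median of 0.22.

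Some glutathione enzymes and iron genes had large ratios, but the list of metallothioneins and iron handling had a median near 0. Of its 11 genes at 5 FPKM or more, 3 were higher (27.3%) and 1 was lower (9.09%), with 5 above 0 and 6 below. The median was -0.02, and -0.07 against Sall1 het with 4 higher and 1 lower. Gpx2, an epithelial glutathione peroxidase, was at 149 in the library labelled DKO, 8.94 in its wild type, 3.31 in Sall1 het and 5.30 in Sall1 KO. The library labelled DKO alone was high, 15.3-fold above its wild type. Mgst3, a microsomal glutathione transferase, was at 151, 20.3, 27.9 and 37.9, Gsta3 at 20.7, 4.15, 0.965 and 0.948, and Gstm6 at 13.2, 4.74, 1.47 and 2.21. Of 18 glutathione transferases, a family chosen after its values were seen, 9 were higher, 0 lower and the median was 0.97. Members with high FPKM were among those below 0, each by less than 2-fold. Gsta4 was at 293 in the library labelled DKO against 492 in its wild type, and Gstp1 at 109 against 139. Gstp2 was at 71.1 against 125, and Gsto1 at 24.5 against 28.2. Gstm5, Gstm6, Gstm3 and Gstm2 form a run of 4 neighbours on mm9 chromosome 3, 107680148 to 107789354, all higher. These copies are alike in sequence, so shared reads make single members uncertain. Other peroxidases were near 0, such as Gpx4 at 894 and 799. Slc40a1, the iron exporter ferroportin, was at 10.5, 0.201, 4.02 and 4.54, and Ftl1, ferritin light chain, at 8989, 4502, 2806 and 3124. Mt1, a metal-binding metallothionein, was at 2457 against 1087 and Mt4 at 0.395 against 5.46.

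Several chromatin lists had no gene at 2-fold. Over all genes 8.49% were at 2-fold, which is the background for the 2-fold counts of this paragraph. Lists of this size would hold few such genes in any case. None of 14 NuRD genes differed by 2-fold, with a median of -0.05, and Chd4, its remodelling ATPase, was at 37.4 and 41.9. The same held for 18 genes of H3K9 methylation and retroelement silencing (median -0.03) and 19 of enhancer coactivators, Mediator and cohesin (median -0.14). Of 23 Polycomb and trithorax genes only Mtf2, a PRC2 accessory factor, was at 2-fold, at 42.1 against 94.9. No Hox gene of 35 reached 5 FPKM. All 47 cytosolic ribosomal protein genes lay above 0 with a median of 0.35, none at 2-fold, and 36 genes of nuclear oxidative phosphorylation had a median of -0.06. Of 23 p53 targets Gdf15 alone was at 2-fold, at 5.60 against 18.8, and Cdkn1a, which encodes p21, was at 100 and 101, against 24.8 in Sall1 het.

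**Figure D4:**
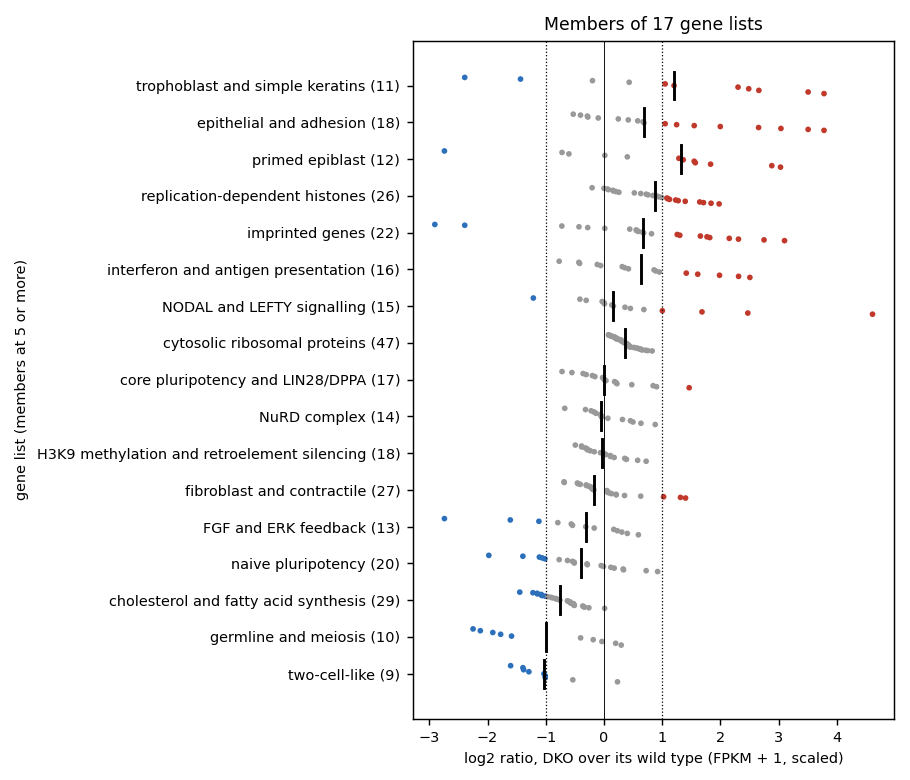
Log2 ratios of the library labelled DKO over its wild type (x axis, FPKM + 1, scaled) for members of 17 gene lists (y axis, number at 5 FPKM or more in parentheses), 1 library a side. Each point is a gene, red at 2-fold or more higher and blue lower, the black bar is the list's median and dotted lines mark 2-fold. Medians run from 1.32 for primed epiblast genes to -1.03 for genes of the 2-cell-like state, and both of these change sign when Sall1 het takes the place of the wild type.

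Among named genes the highest ratio belonged to Foxd1 (mm9, chromosome 13, 99124200 to 99126660), a forkhead factor gene of kidney stroma and forebrain. It was at 90.6 in the library labelled DKO, 0.662 in its wild type, 0.360 in Sall1 het and 0.322 in Sall1 KO, a log2 ratio of 5.80. In the libraries of Sall4 replicate 1 it was at 0.534 in KO and 0.0287 in het, below the library labelled DKO by far. Fgfbp1, which encodes a carrier that releases FGF from the matrix, was at 33.6, 0.924, 7.93 and 7.05. Dok2, an adaptor of tyrosine kinases, was at 23.1, 0.394, 3.99 and 4.20. Atp12a, a proton pump subunit, was at 13.9, 0.243, 0.328 and 0.336, and Slc30a3, a zinc transporter gene, at 20, 1.93, 1.77 and 1.99. For these 4 genes the library labelled DKO was the highest of the 4 libraries, and for Atp12a and Slc30a3 the other 3 lay together near 0 to 2 FPKM. Rtn1 (19.3 against 1.08), Zbp1 (10.9 against 0.632) and Enox1 (9.69 against 0.531) were also among the 20 highest. Of these 20, the library labelled DKO was 2-fold above the other 3 for 14, and its wild type 2-fold below them for 14, with both for 8.

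Among named genes Rpl39l had the largest ratio downward, at 9.06 in the library labelled DKO, 118 in its wild type, 75.3 in Sall1 het and 58.7 in Sall1 KO. Aurkc, an Aurora kinase of meiosis, was at 3.64, 31.2, 25.2 and 20.6. For these 2 genes, for Etv4 and for Slc38a4, the library labelled DKO was low and the other 3 lay together. A second kind had the wild type alone high. S100a13, a calcium-binding protein gene, was at 9.78, 101, 10.3 and 9.15. Cidea, a lipid droplet gene, was at 0.361, 11.9, 0.851 and 0.741, Spic, an ETS factor gene, at 0.870, 11.5, 0.870 and 0.618, and Ly75, an endocytic receptor gene, at 2.37, 20.1, 2.89 and 2.82. Ckb, brain-type creatine kinase, was at 111, 573, 158 and 124, and Bhmt, which remethylates homocysteine, at 0.971, 12.4, 0.0253 and 0.0518. Of the 20 genes with the largest ratios downward, the library labelled DKO was 2-fold below the other 3 for 10, and its wild type 2-fold above them for 13, with both for 3. Serpinb6c, Hesx1, Accsl, Krt42, Tmem40, Calb2 and Arc, with log2 ratios from -2.88 to -2.27, were also among the 20.

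The lists at 2-fold were then set beside pairs that share no library with DKO and its wild type, over named genes at 5 FPKM or more in both comparisons. In Sall4 replicate 1, where 8.58% of all genes were at 2-fold, 34 genes were higher in both comparisons, which is 13.5% of the 251 higher in the library labelled DKO and 23.9% of the 142 higher in that labelled Sall4 KO. There 37 were lower in both, 24.3% and 20.9% of each list. Genes higher in the library labelled DKO and lower in Sall4 KO numbered 11 (4.38% of those higher in the library labelled DKO). The reverse numbered 7 (4.61% of those lower in it). In replicate 2, where 13.5% of all genes were at 2-fold, 71 were higher in both, 28.0% of 254 and 23.4% of 303, and 46 were lower in both, 31.3% of 147 and 17.8% of 259. In opposite directions there were 20 (7.87%) and 3 (2.04%), in the same order. Over all 6903 and 7109 genes measured in both comparisons, 2.06% and 4.26% were higher in the library labelled Sall4 KO, and 2.56% and 3.64% lower. Opposite shares thus also lay above those of all genes, except for the 2.04% in replicate 2. Whether the overlap reflects direction or genes that vary in any pair was not tested. For the pair labelled Sall1 KO and het, 1 gene was higher in both and 0 lower, with 5 and 2 at 2-fold in that pair.

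Both Sall4 pairs shared 23 higher and 23 lower genes with the library labelled DKO. The share of all genes at 2-fold in both Sall4 pairs, whatever their ratio in the library labelled DKO, was not counted. The 23 and 23 therefore have no background here, and whether they exceed it was not tested. Fstl1, a secreted glycoprotein gene, was at 129 in the library labelled DKO against 36.4 in its wild type, at 66.3 in KO and 15.3 in het for Sall4 replicate 1, and at 55.4 and 9.98 for replicate 2. Emp1, an epithelial membrane protein gene, was at 65.4 and 19.5, 58.5 and 11.2, and 51.4 and 8.54 in that order. Dpp4, a surface peptidase gene, was at 23.9 and 3.81, 44.4 and 6.88, and 37.7 and 4.35. Igf2, Id2, Hmga2, an architectural chromatin factor gene, Lgals3, which encodes galectin-3, and Anxa2 and Anxa3, genes of membrane-binding annexins, were among the higher ones. Every library labelled DKO or Sall4 KO lay above its own control for these genes. That follows from how they were selected, at 2-fold higher in all 3 pairs, and is no separate result. Among the lower ones, Slc38a4 was at 6.46 and 55.9, 14.9 and 59.8, and 13.8 and 39.9, and Phlda2 at 4.65 and 29.1, 11.4 and 25.9, and 14.7 and 60.5. Aurkc was at 3.64 and 31.2, 0.852 and 7.43, and 0.385 and 6.56, and Crabp1, a retinoic acid binding protein gene, at 12.3 and 47.9, 15.1 and 52.7, and 13.3 and 58.0. Fdps, Fads2 and Scd1 of the lipid list, Krt42 and Tuba3a were also lower in all 3. Genes named in this paragraph were chosen after their values were seen, apart from those named above.

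Other leading genes of the library labelled DKO varied in the Sall4 pairs. Krt18 was at 63.2 in KO and 37.3 in het for replicate 1 and at 13.6 and 16.0 for replicate 2. Gpx2 was at 6.52 and 4.88, and at 8.23 and 18.9. Dok2 was at 4.03 and 12.9, and at 2.69 and 11.3, lower in both. Etv4 was at 19.8 and 23.6, and at 22 and 22.2. Meg3 was at 277 and 103 in replicate 2, in the direction seen in the library labelled DKO. Zscan4c was at 18.8 and 7.30 in replicate 1 and at 3.35 and 16.0 in replicate 2, in opposite directions. Histone genes lay mostly below 0 in both pairs, with medians of -0.57 over 34 genes and -0.87 over 19.

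No chromosome shifted as a whole. Median log2 ratios per autosome lay between -0.07 for chromosome 18 and 0.08 for chromosome 13, and the X chromosome was at 0.12 over 234 genes. Eif2s3y, a Y-linked translation factor gene, was at 51.0 in the library labelled DKO against 46.7 in its wild type, so both held Y-linked RNA. The filter at 5 FPKM just kept Gspt2 (5.00 and 3.78) and just left out Cenpo (5.00 and 4.66), and the 2-fold limit just kept Ptch1 (log2 ratio -1.0) and left out Tpra1 (0.99).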

How the data were processed

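The RNA libraries of the series comprise 12 tables, of which 8 were used. The deposited values are FPKM (fragments per kilobase, scaled to mapped fragments), per the file headers, and RPKM for Sall4 replicate 2. Per the submitters' processing notes, TopHat, Bowtie 0.12.7, SAMtools and MACS 1.4.2 were used with build mm9. The sources used here do not say which of them made each table. FPKM holds no read totals, so depth is unknown and no counting error is given.

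Values of each pair were scaled by the median ratio of genes at 1 or more in both (11348 genes, factor 0.984 for DKO over its wild type), 1 was added and log2 taken. This understates the change of low genes. A gene was kept where either library reached 5, with 2-fold as the limit. In Sall4 replicate 1, 1225 entries that name no gene were left out, and entries with the same symbol were summed. Starts in the tables were counted from 0 and are printed from 1. Values were computed with numpy 2.4.6 and pandas 2.3.3 in Python 3.11.15 and drawn with matplotlib 3.10.9, and the ratio script was tested on simulated data.

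Groups, 41 gene lists, alternatives and promoter motifs were chosen with earlier results of these data known. Genes were named by rule, first the SALL and TET genes, then the 20 largest ratios per direction without predicted genes, clone names and small RNAs. From each list up to 6 members past 2-fold and 4 highly expressed ones could follow. Members of glutathione, Zscan4 and other groups outside the rule were chosen after their values were seen, as was the comparison of 4 libraries. In all, 12 motifs were searched on both strands over RefSeq promoters, and 3 are reported. The other 9 were TCACCCCAC, a case of TCACNCCAC, TGTNNATT and its case TGTGGATT, TGACNNNGC, AATATT, ATTTGCAT and 3 longer ones. The 68 samples that are not RNA, and 4 RNA libraries, were not analysed here, and some members of the lists are not reported here.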

Additional observations from a re-analysis of the deposited data

How the results depend on the processing

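With values as deposited, upper-quartile or trimmed-mean scaling, 404 to 438 genes were higher in the library labelled DKO and 293 to 324 lower, and list medians over 0.1 from 0 kept their sign. With a pseudocount of 5, 231 were higher and 184 lower, the wild type against Sall1 het had 568, and the Sall4 pairs had 578 and 937. With Sall1 het in place of the wild type, chosen after seeing the data, 667 were higher and 492 lower, the median of primed epiblast genes was -0.66 and that of 2-cell-like genes 0.34. Without small RNAs, predicted genes and clone names, also chosen then, Sall1 KO against het had 7 genes at 2-fold and the Sall4 pairs 520 and 834. With no filter on low values the median of the Rhox cluster was -0.048, from 2.39. The 253 named genes include many that lay within 2-fold in the main setting. Of those past 2-fold, 33 fell inside it with a pseudocount of 5. Unknown depth and 1 library a side limit every value. No paired analysis was possible because each group of the comparison has 1 library and no replicate number pairs them.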
